A study of Homo sapiens with 6 samples.

Results

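The neuronal pentraxins are a family of 3 human genes, NPTX1, NPTX2 and NPTXR. All 3 were matched by symbol to an Ensembl ID among the 60499 gene IDs of the deposited tables, and all 3 were among the 17608 genes with enough counts to be tested. The family was chosen on a measured value: NPTX1 was selected on its difference between the coatings in these same wells, and NPTX2 and NPTXR were taken because they are its relatives. The differences of the 3 genes between the coatings are therefore given as a description, with no test.

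The cells were H1, an established human embryonic stem cell line obtained from WiCell. They were grown for 4 days, with fresh Nutristem medium each day, on laminin-521 alone (LN-521) or on a mix of laminin-521 and laminin-221 (LN-521+LN-221, here called the mixed coating). Both laminins are extracellular matrix proteins to which stem cells attach, and the LN-521 wells served as the reference. Each coating had 3 wells, and each well gave 1 library of total RNA. The labels number the wells as biological replicates, but all 6 came from 1 line and nothing says that they were started from separate cultures, so p-values measure only the spread between these wells.

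Pentraxins are secreted or membrane-bound proteins that assemble into multimers through a shared pentraxin domain, the same domain that builds the blood proteins CRP and serum amyloid P (APCS). NPTX1 and NPTX2 are secreted, while NPTXR is anchored in the membrane and can be cut free by the protease ADAM17. At excitatory synapses the 3 proteins form mixed complexes that cluster AMPA-type glutamate receptors. In human pluripotent cells NPTX1 has been described as a factor that favours entry into the neural lineage and binds TDGF1, the co-receptor of Nodal.

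The stretch of coding sequence that carries the pentraxin family signature is shown for the 3 genes, because it is where the relatedness of the family, and so the chance of dividing reads between its members, can be seen. Each line holds 120 coding bases of the GENCODE release 29 model on GRCh38, written 5′ to 3′ on the gene's own strand and spliced over the junction of exon 3 and exon 4 of 5 exons. The 24 bases in capitals are the codons of the signature.
NPTX1: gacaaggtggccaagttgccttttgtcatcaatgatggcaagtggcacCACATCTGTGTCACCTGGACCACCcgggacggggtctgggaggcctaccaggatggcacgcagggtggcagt
NPTX2: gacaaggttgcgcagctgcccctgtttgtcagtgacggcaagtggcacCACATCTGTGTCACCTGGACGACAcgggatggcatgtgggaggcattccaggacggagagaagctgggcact
NPTXR: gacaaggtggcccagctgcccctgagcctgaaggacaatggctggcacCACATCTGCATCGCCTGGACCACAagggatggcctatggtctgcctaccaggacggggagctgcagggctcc

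The stretches lie at chr17:80471798-80473205 on the minus strand for NPTX1, chr7:98625161-98627278 on the plus strand for NPTX2 and chr22:38823149-38826505 on the minus strand for NPTXR, introns included. The signature was found once in NPTX1 and once in NPTX2, and it had no exact match in NPTXR, whose stretch was placed by its best match in frame to that of NPTX1. NPTX1 and NPTX2 were identical at 91 of the 120 bases (75.8%) and at 22 of the 24 capitals. NPTX2 and NPTXR shared 87 bases (72.5%), and NPTX1 and NPTXR shared 80 (66.7%). The coding sequences measured 1296 bases in NPTX1, 1293 in NPTX2 and 1500 in NPTXR. The longest identical run between their transcripts was 32 bases for NPTX1 and NPTX2, against paired reads of 150 bp, and 22 and 19 bases for the other pairs. No count of the 3 genes was fractional in any of the 6 libraries, whereas 6.08% to 6.67% of the deposited values per library were, a sign there that reads had been divided between genes.

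Libraries held between 20606494 and 26836727 estimated counts, with 27076 to 27938 genes having at least 1. Across the 17608 tested genes, edgeR's quasi-likelihood test with Benjamini-Hochberg adjustment called 446 at an adjusted p under 0.05 (2.53%), of which 246 were higher on the mixed coating (1.40%) and 200 lower (1.14%). The labelled cell type was checked against marker lists. All 9 pluripotent cell markers were tested and summed to 2951 to 3309 TPM on LN-521 and 2987 to 3196 TPM on the mixed coating. None of the 9 mesoderm and endoderm markers passed the filter, with at most 10 counts in a library. TPM is a share of all transcripts, corrected for transcript length so that genes can be compared. CPM is a share of the counts of a library, after scaling of the libraries with edgeR's TMM factors, and is used to compare wells.

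NPTX1 (ENSG00000171246) lies on the minus strand of chr17:80467148-80477843, and no other annotated gene overlaps it. In the 3 LN-521 wells it had 7076, 7706 and 8098 counts, or 308, 290 and 325 CPM. In the 3 mixed-coating wells it had 3653, 3564 and 3591 counts, or 176, 160 and 152 CPM. Every LN-521 well was far above every mixed-coating well, and the lowest value of the first group stood well clear of the highest of the second.

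The mean NPTX1 level was 308 ± 17.7 CPM (SD, n = 3) on LN-521 and 162 ± 12.3 CPM (SD, n = 3) on the mixed coating, which is 52.8% of the LN-521 level. The fitted log2 fold change, the mixed coating relative to LN-521 alone, was -0.92 with a standard error (SE) of 0.06. The group means of log2 CPM lay 9.55 pooled SDs apart. Among all tested genes, 19.9% likewise had CPM values that did not overlap between the coatings, and 98.7% had a smaller absolute log2 fold change than NPTX1. NPTX1 ranked 234 by absolute log2 fold change, and 102 counting from the most negative. Since NPTX1 was selected for this difference, these ranks describe the selection.

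In TPM the difference was of similar size. NPTX1 measured 55.9, 43.1 and 51.9 TPM in the LN-521 wells and 30.6, 27.3 and 25.8 TPM in the mixed-coating wells. The second LN-521 well was the lowest of its group in both units, yet still above all 3 wells of the mixed coating. The means were 50.3 ± 6.56 and 27.9 ± 2.45 TPM (SD, n = 3 each), a level of 55.5% on the mixed coating. Averaged over the 6 wells, NPTX1 was at 39.1 TPM, above 88.7% of the tested genes. In these bulk samples, fewer cells expressing NPTX1 and less NPTX1 RNA per cell cannot be told apart.

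NPTX2 (ENSG00000106236), the activity-regulated secreted member also known as Narp, lies on the plus strand of chr7:98617297-98629868. It had 311, 370 and 315 counts on LN-521 and 274, 281 and 310 on the mixed coating. These are 13.5, 13.9 and 12.6 CPM against 13.2, 12.6 and 13.1 CPM. The first and second LN-521 wells were above all 3 mixed-coating wells, and the third LN-521 well lay among them, so the groups overlapped. The means were 13.4 ± 0.653 and 13.0 ± 0.317 CPM (SD, n = 3 each), and the log2 fold change was -0.04 with an SE of 0.09. Its sign depended on the unit: in TPM the means were 4.35 ± 0.372 and 4.37 ± 0.191, the second being 100.5% of the first.

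NPTXR (ENSG00000221890), the membrane-anchored receptor of the family, lies on the minus strand of chr22:38818452-38843982. It had 212, 247 and 248 counts on LN-521 and 185, 196 and 228 on the mixed coating. Its levels were 9.23, 9.29 and 9.95 CPM on LN-521, and 8.91, 8.79 and 9.63 CPM on the mixed coating. One well of the mixed coating exceeded 2 of the 3 LN-521 wells, so the groups overlapped. The means were 9.49 ± 0.401 and 9.11 ± 0.454 CPM (SD, n = 3 each), with a log2 fold change of -0.06 and an SE of 0.11. In TPM NPTXR stood at 1.34 ± 0.114 on LN-521 and 1.31 ± 0.0379 on the mixed coating (SD, n = 3 each).

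**Figure D1:**
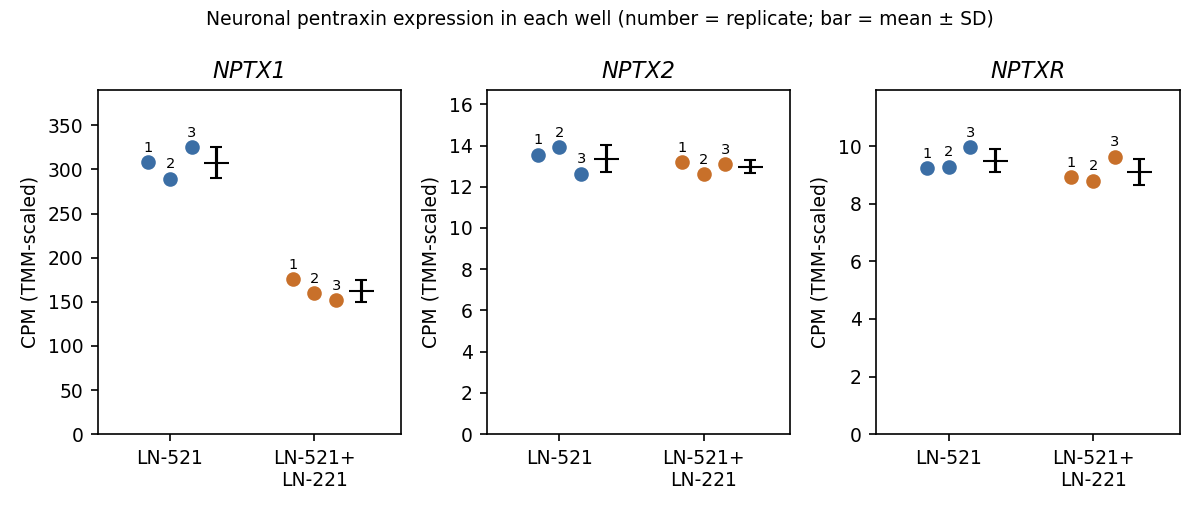
CPM of NPTX1, NPTX2 and NPTXR in each of the 6 wells, with the mean and SD of each coating (n = 3) and a separate axis from 0 for each gene. The mixed-coating wells of NPTX1 sit between 152 and 176 CPM, all under the LN-521 wells at 290 to 325 CPM, while the wells of NPTX2 and NPTXR overlap.

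The counting error behind these values differed with depth. For NPTX1 the coefficient of variation between wells was 5.74% on LN-521 and 7.59% on the mixed coating, well above the 1.15% and 1.67% that counting alone gives at its depth. For NPTX2 it was 4.88% and 2.44%, below the counting values of 5.49% and 5.89%, and for NPTXR 4.22% and 4.99%, also below the counting values of 6.51% and 7.02%. The spread of the 2 lower genes was therefore no larger than counting alone gives. With 3 wells per coating such values are imprecise, so they do not show that counting was the only source of spread. The edgeR fit, which also draws on other genes, gave a variation beyond counting of 6.11% for NPTX2 and 6.68% for NPTXR. The group means of log2 CPM lay 0.771 pooled SDs apart for NPTX2 and 0.905 for NPTXR.

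**Figure D2:**
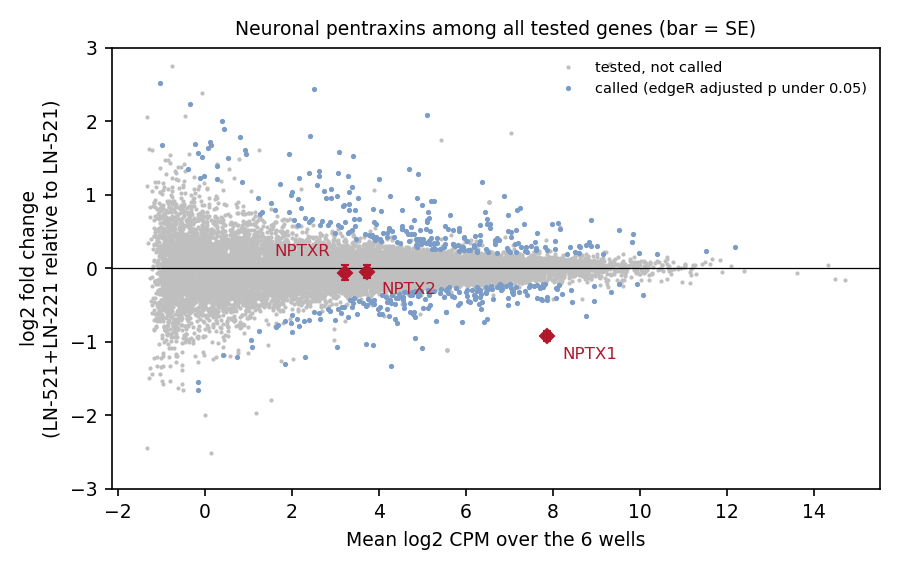
Log2 fold change (the mixed coating relative to LN-521 alone) against mean log2 CPM for the tested genes, with the 3 neuronal pentraxins in red and their SE as bars. NPTX1 lies at -0.92, apart from the main cloud at its level, and NPTX2 and NPTXR lie within it at -0.04 and -0.06; 2 genes beyond 3 in absolute value are outside the axis.

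The order of the 3 genes was the same in all wells when compared per length in TPM: NPTX1 was highest, NPTX2 second and NPTXR lowest. NPTX1 exceeded NPTX2 by 11.6-fold in mean TPM on LN-521 and by 6.39-fold on the mixed coating. NPTX2 exceeded NPTXR by 3.25-fold and 3.33-fold. The gap between NPTX2 and NPTXR was at least 2.67 TPM in any well, several times the SD of either gene, so no neighbours in this order overlapped. NPTX2 was above 43.3% of the tested genes in TPM and NPTXR ranked 13382 of 17608 by TPM.

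Summed over the family, neuronal pentraxin transcripts made up 62.1, 48.5 and 57.4 TPM in the LN-521 wells and 36.4, 33.1 and 31.3 TPM in the mixed-coating wells. The sums did not overlap, and their means were 56.0 ± 6.87 and 33.6 ± 2.61 TPM (SD, n = 3 each). Most of each sum was NPTX1, which was selected for its difference, so this gap mostly restates that selection. NPTX1 made up 88.8% to 90.6% of the sum on LN-521 and 82.5% to 84.0% on the mixed coating. The smaller NPTX1 share on the mixed coating accompanied levels of the other members that overlapped between the coatings.

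**Figure D3:**
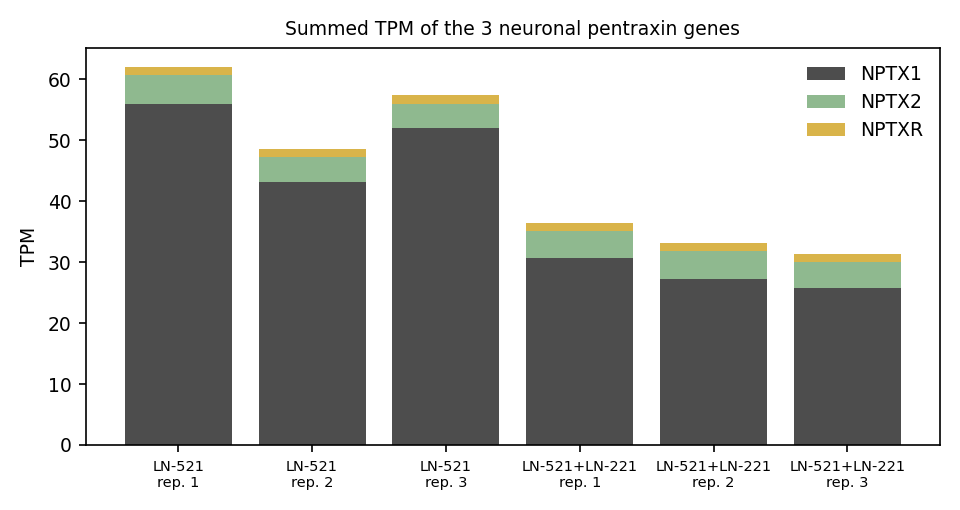
Stacked TPM of NPTX1, NPTX2 and NPTXR in each well, on an axis from 0. NPTX1 fills 82.5% or more of every bar, and the mixed-coating bars end between 31.3 and 36.4 TPM against 48.5 to 62.1 TPM on LN-521.

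The genes whose pattern over the 6 wells was most like that of each member were found by the root mean square (RMS) difference of log2 CPM, centred on each gene's own mean. For NPTX1 the nearest was MT1E, a metallothionein that binds zinc and copper, at an RMS difference of 0.084 and a log2 fold change of -0.94. PLAC9 and TIE1, an endothelial receptor tyrosine kinase, followed at 0.103 each, with log2 fold changes of -0.86 and -0.87. The pluripotency factor NANOG came next at 0.109 with -0.73, and then the metallothionein MT1X at 0.116 with -0.72. All 5 were lower in each mixed-coating well than in any LN-521 well, which follows from their choice by likeness to NPTX1; in either direction, 19.9% of all tested genes did not overlap. PLAC9 was the least precise of them, at no more than 1.89 CPM in any well and with an SE of 0.25. Metallothioneins form a family of near-identical genes and NANOG has processed copies, so reads may have been divided among them.

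**Figure D4:**
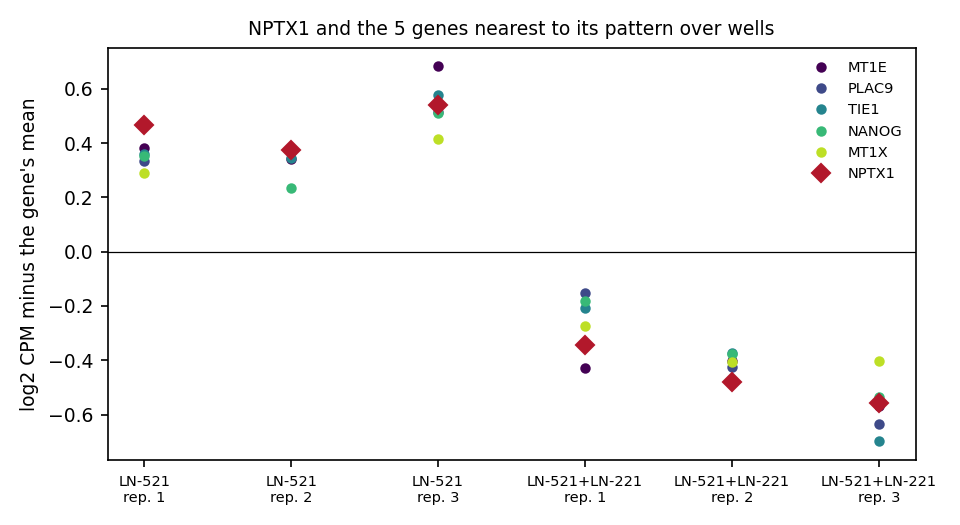
Centred log2 CPM of NPTX1 and of the 5 genes nearest to it in each of the 6 wells. All 6 genes are above their own mean in the LN-521 wells and below it in the mixed-coating wells.

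For NPTX2 the nearest patterns were those of PTPRS, a receptor tyrosine phosphatase, at 0.013, ITPRIPL1 at 0.015 and ZNF232 at 0.017. For NPTXR they were those of TUBGCP3, a component of the gamma-tubulin complex, at 0.013, the endoplasmic reticulum protein ERP29 at 0.015 and the kinase CLK4 at 0.016. These 6 genes had log2 fold changes between -0.06 and -0.03. Small RMS differences are easily reached by genes that vary little between wells, so they carry less information than those of NPTX1.

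The protein-coding genes next to each member were compared as well. NPTX1 lies between ENDOV, 29.1 kb away, and RPTOR, 67.0 kb away. ENDOV, which encodes an endonuclease, measured 6.04 ± 0.586 and 5.07 ± 1.30 CPM (SD, n = 3 each), with an edgeR adjusted p of 0.535. RPTOR, the scaffold of the mTORC1 kinase complex, measured 37.2 ± 5.72 and 33.5 ± 0.439 CPM, with an edgeR adjusted p of 0.484. Neither neighbour passed the test. The neighbours of NPTX2 (BAIAP2L1 and TMEM130) and of NPTXR (DNAL4 and CBX6) did not pass it either, with edgeR adjusted p-values from 0.232 for CBX6 to 0.961 for DNAL4.

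The wider setting of the family was described with 7 lists of genes. They covered other pentraxins, AMPA receptor subunits, their auxiliary subunits, their scaffolds, and the binding and shedding of neuronal pentraxins. Also covered were other secreted or adhesive organisers of synapses, and the Nodal and TDGF1 axis. The lists were chosen with earlier results of these data known, so shares of them are no test. They held 78 genes in all. Of these, 63 were tested, and 4 of the 63 (6.35%) passed, 1 higher on the mixed coating and 3 lower, against 2.53% of all tested genes. Their median log2 fold change was -0.03, against -0.0011 over all tested genes. The count of 4 is small and moved with single libraries: it was 11 without the first LN-521 well and 2 without the third LN-521 well, the first well of the mixed coating or the third well of the mixed coating.

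The other pentraxins were almost absent. CRP, APCS and PTX4 had 0 to 2 counts per library. PTX3, a long pentraxin of the innate immune response, had 13 to 33 counts and a mean of 0.375 TPM, and its log2 fold change of -0.14 had an SE of 0.36. NPTX1, NPTX2 and NPTXR were thus all more abundant per length than any other pentraxin gene listed.

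Of the 4 AMPA receptor subunits, to which neuronal pentraxins bind, none passed the test. GRIA2, the subunit that limits calcium flow, had 0 to 2 counts per library and was not tested. GRIA4 was the most abundant at 3.60 TPM, and measured 11.2 ± 1.04 CPM on LN-521 and 9.24 ± 0.722 CPM on the mixed coating (SD, n = 3 each). Its log2 fold change was -0.28, with an SE of 0.11 and an edgeR adjusted p of 0.231. GRIA3 measured 2.20 ± 0.340 and 1.59 ± 0.0630 CPM, with an edgeR adjusted p of 0.311, and GRIA1 3.28 ± 0.367 and 3.37 ± 0.161 CPM, with an edgeR adjusted p of 0.945. The median log2 fold change of the 3 tested subunits was -0.28.

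Among the 12 auxiliary subunits, 10 were tested and 1 passed (10%, against 2.53% of all tested genes). This was CACNG8, which encodes the regulatory protein TARP gamma-8, and it rose. It went from 18.6 ± 1.42 to 23.8 ± 2.11 CPM (SD, n = 3 each), with a log2 fold change of 0.35, an SE of 0.09 and an edgeR adjusted p of 0.0479. This call held in 1 of the 6 fits that left out a library, the one without the first LN-521 well (edgeR adjusted p of 0.00715), and in the other 5 the adjusted p ran from 0.0796 without the second LN-521 well to 0.297 without the third well of the mixed coating. CACNG7, the most abundant of the list at 11.8 TPM, had a log2 fold change of -0.18 and an edgeR adjusted p of 0.299. SHISA9 came second at 3.59 TPM, with a log2 fold change of -0.09 and an edgeR adjusted p of 0.734. The 10 tested genes had a median log2 fold change of -0.07.

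None of the 8 scaffold and trafficking genes passed. They were well expressed for the most part, led by DLG3 at 64.0 TPM, which encodes the scaffold SAP102, with an edgeR adjusted p of 0.933. DLG1, the scaffold SAP97, stood at 38.5 TPM with an edgeR adjusted p of 0.314. The median log2 fold change of the list was 0.01.

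Of 8 genes listed for the binding and shedding of neuronal pentraxins, 5 were tested and none passed. ADAM17, the protease that sheds NPTXR, measured 60.3 ± 2.94 CPM on LN-521 and 66.6 ± 0.136 CPM on the mixed coating (SD, n = 3 each), with an edgeR adjusted p of 0.290. RCN2, which encodes a calcium-binding protein of the endoplasmic reticulum known to bind pentraxins, was the most abundant at 85.9 TPM, with an edgeR adjusted p of 0.551. ADAM10, a membrane protease related to ADAM17, stood at 69.5 TPM with an edgeR adjusted p of 0.572. The median log2 fold change of the 5 was -0.07. The complement genes C1QA, C1QB and C1QC had at most 1 count in any library.

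Of 27 other synapse organisers, 21 were tested and 1 passed (4.76%, against 2.53% of all tested genes). This was NLGN4X, a postsynaptic adhesion protein of the neuroligin family, and it fell. It went from 182.9 ± 6.68 to 148.2 ± 4.11 CPM (SD, n = 3 each), with a log2 fold change of -0.30, an SE of 0.05 and an edgeR adjusted p of 0.00352, and the call was kept in all 6 fits that left out a library but in none of the 3 limma fits on TPM (adjusted p of 0.498 to 0.563). Its counts were fractional in all 6 libraries, so reads may have been divided between it and other genes. AGRN, which encodes agrin, stood at 38.6 TPM with an edgeR adjusted p of 0.893. The list's median log2 fold change was -0.0076.

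All 15 genes of the Nodal and TDGF1 axis were tested, and 2 fell (13.3%, against 1.14% of all tested genes called lower). The list was chosen with earlier results of these data known, so this share is a description and no test of the axis. TDGF1, the co-receptor to which NPTX1 is known to bind, measured 511, 497 and 571 CPM in the LN-521 wells and 357, 336 and 317 CPM in the mixed-coating wells. The groups did not overlap, and the log2 fold change was -0.65, with an SE of 0.06 and an edgeR adjusted p of 8.23e-06. The call was lost in the 3 limma fits on TPM (adjusted p of 0.0836 to 0.282). TDGF1 counts were fractional in 5 libraries. GDF3, a ligand of the same pathway, fell from 4.78 ± 0.458 to 2.86 ± 0.440 CPM (SD, n = 3 each), with an edgeR adjusted p of 0.0209. That call was lost without the third LN-521 well (adjusted p of 0.130), the first well of the mixed coating (0.102) or the third well of that coating (0.145), and with DESeq2 (0.0541).

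The other 13 genes of the axis did not pass. NODAL itself was scarce, with 13 to 36 counts per library, a log2 fold change of -0.51, an SE of 0.35 and an edgeR adjusted p of 0.554. LEFTY2, a Nodal target and inhibitor, had a log2 fold change of -1.18, an SE of 0.40 and an edgeR adjusted p of 0.167. It was also scarce, with 6 to 63 counts per library, and its counts were fractional in 4 libraries. SMAD4, the shared signal transducer, was abundant at 95.1 TPM and had an edgeR adjusted p of 0.510. The list's median log2 fold change was -0.16.

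**Figure D5:**
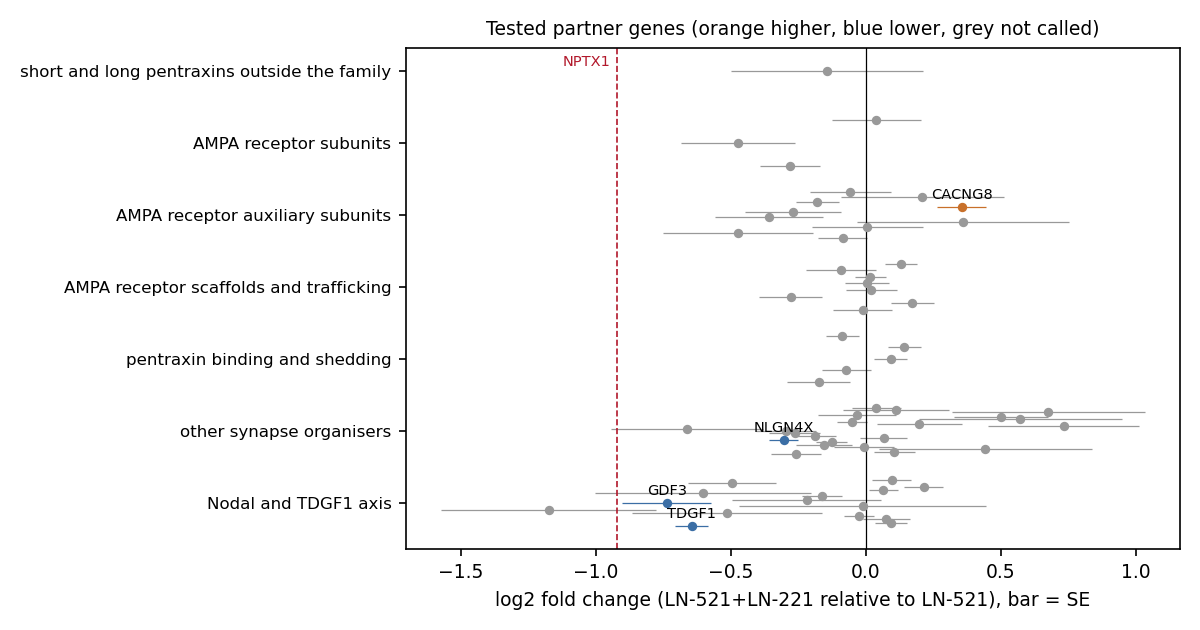
Log2 fold change (the mixed coating relative to LN-521 alone) of the 63 tested genes of the 7 lists, with SE as bars; orange and blue points passed the edgeR test, and the dashed red line marks NPTX1 at -0.92. The 4 coloured points are CACNG8, NLGN4X, GDF3 and TDGF1, and most others scatter around 0.

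Markers of neural cells and of fibroblasts were read beside NPTX1. The 12 neuron markers summed to 133.3 to 145.2 TPM on LN-521 and 150.8 to 151.8 TPM on the mixed coating. The sum itself was not tested. Most of the sum was TUBB3, neuronal beta-tubulin, at 105.2 TPM over all wells, which did not pass the test. Of the 9 that were tested, 2 passed (22.2%, against 2.53% of all tested genes): STMN2 rose and DCX fell, the latter call being kept in 1 of the 6 fits that left out a library. A negative log2 fold change was found for 4 of the 9. The list was mixed in level: SNAP25, NEUROD1 and NEUROG2 had at most 9, 12 and 7 counts in a library, while RBFOX3, which encodes NeuN, had 145 to 211, MAP2 538 to 679 and SYT1 1321 to 1723. The 10 neural progenitor markers summed to 7.46 to 11.0 TPM on LN-521 and 8.07 to 9.13 TPM on the mixed coating, and none of the 3 tested passed. Nearly all of that sum was FABP7, at 7.99 TPM and 171 to 229 counts, while PAX6 had 6 to 18 counts and SOX1 1 to 9. Of the 6 fibroblast markers, which summed to 103.8 to 119.0 TPM on LN-521 and 110.8 to 128.4 TPM on the mixed coating, none of the 4 tested passed, and LUM had no count in any well.

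Among the pluripotent cell markers, 3 of 9 (33.3%) passed the test in these same wells, against 2.53% of all tested genes. NANOG fell, with a log2 fold change of -0.73, an SE of 0.09 and an edgeR adjusted p of 0.000165. POU5F1 fell by 0.36 on the log2 scale, with an edgeR adjusted p of 0.00366, or 0.0508 without the second well of the mixed coating. LIN28A rose by 0.23, with an edgeR adjusted p of 0.00737, a call lost without the third LN-521 well (adjusted p of 0.0765), the second well of the mixed coating (0.112) or the third well of that coating (0.0568). Counts of NANOG and POU5F1 were fractional in all 6 libraries. None of the 3 calls was kept in the limma fits on TPM, where the adjusted p ran from 0.221 to 0.473 for NANOG, 0.282 to 0.360 for POU5F1 and 0.549 to 0.623 for LIN28A. NANOG and POU5F1 have processed copies in the genome, and whether reads were shared with them was not tested. The part of these marker genes in the NPTX1 difference was not tested.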

How the data were processed

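The authors deposited gene tables of estimated counts and of TPM for 6 libraries. The submitters' processing notes name cutadapt, STAR 2.5.2b, RSEM 1.2.31 and hg38; the annotation behind the counts and their use of strand are not given in the sources used here. Per the labels' protocols, libraries came from a stranded total RNA kit and were read in pairs of 150 bp.

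Estimated counts were rounded, genes were kept by filterByExpr (minimum count 10), and libraries were scaled by TMM. The 2 coatings were tested against each other in edgeR 4.0.16 (R 4.3.3; robust quasi-likelihood fit on all 6 libraries, no replicate block). P-values were adjusted by Benjamini-Hochberg over 17608 genes. Symbols were found for 68.0% of the IDs. Positions, neighbours and sequences came from GENCODE release 29 on GRCh38, read with biopython 1.88. RMS differences used log2 CPM with a prior count of 2. The scripts were tested on simulated data.

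The members and gene lists were chosen with earlier results of these data known. Genes named are the members, those nearest in pattern, the adjacent protein-coding genes, list genes that passed the test, the 2 most abundant genes of each pathway list, TDGF1, NODAL and the AMPA receptor subunits; others were chosen after their values were seen. One result under this rule is not reported here.

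Replicate numbers recur in both coatings. Over all tested genes, deviations of wells with the same number correlated at -0.022 to 0.047, so no general pairing by number was seen. A pairing that affects only some genes is not covered by this check. No 2 libraries agreed within sampling noise. The deposited sample sheet lists 1 sequencing batch for all libraries. Alternatives were a replicate block, RLE size factors, library size alone, other filters, DESeq2 1.42.0, limma 3.58.1 on log2(TPM + 1) and log2(TPM + 0.1), leaving out each library and, added after seeing the data, a fit without robust moderation.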

Additional observations from a re-analysis of the deposited data

How the results depend on the processing

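NPTX1 was lower on LN-521+LN-221 in every setting run: its log2 fold change was -0.82 on log2(TPM + 1) with or without a filter, -0.92 with the replicate block and -0.98 to -0.88 with 1 library left out. NPTX2 ran from -0.084 to -0.011 with 1 library left out and was 0.0080 on log2(TPM + 1), with or without the filter, and 0.0100 on log2(TPM + 0.1). NPTXR ran from -0.103 to -0.023 with 1 library left out. The 446 called genes became 718 with no filter, 33 with limma on log2(TPM + 1), 16 on log2(TPM + 0.1) and 1 on log2(TPM + 1) with no filter. The replicate block gave 646, of which 442 were shared. Leaving out 1 library gave 194 (without the third LN-521+LN-221 well) to 1179 (without the first LN-521 well). The 4 called pathway genes became 2 with DESeq2, 5 with the replicate block and 2 to 11 with 1 library left out. They became 0 in the limma fits on log2(TPM + 1), log2(TPM + 0.1) and log2(TPM + 1) with no filter, where 7 of 45, 6 of 45 and 12 of 78 tested had an unadjusted p under 0.05, against 23 of 63 in edgeR. Over all tested genes these counts were 1160 of 14428, 1178 of 14428 and 2362 of 36252, against 2561 of 17608. The cause was not tested. CACNG8 was also lost with library size alone, CACNG8 and DCX without robust moderation, and CACNG8, DCX and GDF3 with DESeq2. Wells came from 1 line, so other lines or passages are not covered, and the low counts of NPTX2 and NPTXR limit what can be seen of them.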

Other observations

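Of the 9 neuron markers tested, 1 rose and 1 fell (22.2%, against 2.53% of all tested genes). STMN2, a microtubule regulator of growing neurites, rose from 23.5 ± 1.01 to 32.5 ± 0.985 CPM (SD, n = 3 each), with a log2 fold change of 0.47, an SE of 0.07 and an edgeR adjusted p of 0.00130. That call was kept in all 6 fits that left out a library and in none of the 3 limma fits on TPM (adjusted p of 0.559 to 0.751). DCX, a microtubule protein of migrating young neurons, fell from 11.6 ± 0.547 to 8.60 ± 1.02 CPM (SD, n = 3 each), with an edgeR adjusted p of 0.0492. Of the 6 fits, the one without the first LN-521 well kept this call (adjusted p of 0.0190), and in the other 5 the adjusted p ran from 0.0684 without the second LN-521 well to 0.275 without the third well on LN-521+LN-221. With all libraries, the DCX call was also lost with DESeq2 (adjusted p of 0.101), without robust moderation in edgeR (0.0599) and in the limma fits (0.233 to 0.401). TUBB3, neuronal beta-tubulin, had a log2 fold change of 0.10 and an edgeR adjusted p of 0.496, and its counts were fractional in all 6 libraries. The vesicle protein gene SYT1, at 12.5 TPM, had a log2 fold change of -0.09 and an edgeR adjusted p of 0.573.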
